A study of Homo sapiens with 20 samples.

Results

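The regions described here are the ChIP-seq peaks on 4 distal chromosome segments, chosen by position alone. They are the peaks whose start lies at or beyond 120 Mb on chromosome 8, 100 Mb on chromosome 10, 80 Mb on chromosome 16 and 40 Mb on chromosome 17 (hg38), on the long arms 8q, 10q, 16q and 17q. These are segments described as carrying extra copies in HCT116, a widely used line from a human colorectal carcinoma. The 18 deposited peak lists held 93758 such peaks of 992895 in all, and 116795 peaks lay on the rest of the same chromosomes. The segments cover 112 Mb with 1121 protein-coding genes, and the rest of these chromosomes covers 340 Mb with 2350 genes.

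The study compared MLL4-knockout (KO) with wild-type (WT) HCT116 cells, both untreated as far as the labels say. Whether the knockout is 1 clone, and whether replicates are separate cultures, is not given in the sources used here, so any spread between replicates may be technical. H3K27ac, H3K4me3 and p53 were profiled in 2 KO and 2 WT libraries each, and H3K4me1, MLL4 and MLL1 in 1 KO and 1 WT library each. Each list was called by the authors against 1 input per genotype. The input libraries themselves were not analysed here, and read depth is not given in the sources used here.

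MLL4 (KMT2D) is a histone methyltransferase that places the first methyl group on lysine 4 of histone H3 at enhancers, and MLL1 (KMT2A) is a related enzyme that works mainly at promoters. H3K4me1 marks enhancers and promoter flanks, H3K27ac active enhancers and promoters, and H3K4me3 active promoters, while p53 is a stress-responsive transcription factor. A peak is a stretch where ChIP reads exceed a local background taken from the input, so a segment present in more copies adds reads to both sides of that comparison.

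Of the 1121 protein-coding genes on the segments, 716 had a promoter window in RefSeq (GRCh38.p14), which runs from 250 bases before to 50 bases after a gene's start. Together they had 1011 windows. The windows below are shown because a lost or gained region, or one of the strongest p53 regions, overlapped them. All are 5′ to 3′ on the strand of the gene, and capitals mark CpG dinucleotides. The MGMT window (chr10:129466991-129467290, plus strand) lay in an H3K4me3 region called in WT only. The TAF1C window (chr16:84187008-84187307, minus strand) overlapped a p53 region called in KO only. The INPP5F window (chr10:119726246-119726545, plus strand) and the METRNL window (chr17:83080896-83081195, plus strand) lay in p53 regions called in all 4 p53 libraries.
MGMT: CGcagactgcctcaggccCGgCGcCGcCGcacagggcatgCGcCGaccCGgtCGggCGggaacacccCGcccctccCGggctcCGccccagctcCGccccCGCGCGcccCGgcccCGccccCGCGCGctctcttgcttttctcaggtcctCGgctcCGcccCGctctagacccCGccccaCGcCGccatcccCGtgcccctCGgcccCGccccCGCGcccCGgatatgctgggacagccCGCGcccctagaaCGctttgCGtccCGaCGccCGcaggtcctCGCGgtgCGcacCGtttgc
TAF1C: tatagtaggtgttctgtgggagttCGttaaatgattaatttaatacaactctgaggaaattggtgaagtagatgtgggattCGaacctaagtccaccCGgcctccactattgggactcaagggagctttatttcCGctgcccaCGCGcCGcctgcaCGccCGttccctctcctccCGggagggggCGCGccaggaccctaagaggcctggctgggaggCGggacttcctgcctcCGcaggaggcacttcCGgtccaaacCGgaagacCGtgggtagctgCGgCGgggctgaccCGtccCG
INPP5F: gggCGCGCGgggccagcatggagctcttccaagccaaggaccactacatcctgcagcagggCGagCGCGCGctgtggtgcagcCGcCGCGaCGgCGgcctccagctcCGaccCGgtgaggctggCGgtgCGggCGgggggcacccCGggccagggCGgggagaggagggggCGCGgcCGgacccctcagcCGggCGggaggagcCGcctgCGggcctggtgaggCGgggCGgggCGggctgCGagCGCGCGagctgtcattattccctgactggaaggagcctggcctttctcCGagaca
METRNL: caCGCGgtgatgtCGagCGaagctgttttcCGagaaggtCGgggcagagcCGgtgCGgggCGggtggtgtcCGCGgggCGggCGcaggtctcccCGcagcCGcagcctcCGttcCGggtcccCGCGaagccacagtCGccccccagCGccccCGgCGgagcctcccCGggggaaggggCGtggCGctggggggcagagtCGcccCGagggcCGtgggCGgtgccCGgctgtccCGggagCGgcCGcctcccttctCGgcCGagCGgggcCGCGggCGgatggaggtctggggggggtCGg

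CpG numbers in these 300 bases were 45 at MGMT, 21 at TAF1C, 34 at INPP5F and 41 at METRNL. The median over the 1011 segment windows was 22 CpG and 64.3% G+C. The 489 segment windows that overlapped a p53 region called in all 4 libraries had a median of 33 CpG and 71.3% G+C. The 81 that overlapped a p53 region called in KO only had a median of 21 CpG and 62.7% G+C, close to all segment windows. The p53 half-site consensus, a 10-base motif equal to its own reverse complement, had no match in any of the 4 windows. It matched in 4.09% of the 489 windows (95% Wilson interval 2.66 to 6.23%), in 5.74% of all segment windows and in 5.78% of the windows on the rest of these chromosomes. Matches in a window of this length are a description only.

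MLL4 itself was read first, since it checks the labels. On the segments, the KO library had 2 MLL4 peaks and the WT library 5836. The rest of the chromosomes had 57 MLL4 peaks in KO and 6785 in WT. Both KO peaks on the segments were also called in WT. The peak 15179 bp from CCDC200 on chromosome 17 had 16.7-fold enrichment in KO and 16.7-fold in WT, and the one 60419 bp from FRG2B on chromosome 10 had 5.98-fold in KO and 8.23-fold in WT. Markers of colon epithelium were read as a check of the cell type: 6 of 8 had an H3K4me3 peak within 1 kb of a gene end in all 4 H3K4me3 libraries, KRT19 on 17q among them, and KRT20 and VIL1 had none. Of 8 markers of other cell types, 7 had none, and COL1A1 on 17q had a peak in all 4.

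The description of the segments as gained was checked against the input background at each peak. This background could be recovered from the fold and the −log10 p-value in 7 lists. It is given as the share of peaks where it exceeded the most frequent level of its list by over 1%. On the segments the share was 44.3 to 58.1% in the 3 KO lists (MLL1 and both p53) and 39.3 to 56.1% in the 4 WT lists (MLL4, MLL1 and both p53). On the rest of the same chromosomes it was 30.4 to 49.9% in KO and 24.6 to 35.3% in WT, lower than on the segments in every list. The lists of a genotype share 1 input, so they are not independent measurements of it.

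By chromosome, the share was higher on the segments of 10, 16 and 17 than on the rest in all 7 lists. On chromosome 10 the step lay at the segment's start: in p53 KO replicate 1 it was 87.6% in the first 10 Mb inside and 58.4% in the last 10 Mb outside, and in p53 WT replicate 1 it was 83.5% inside and 44.6% outside. The share was not high to the end of that segment. Between 30 and 40 Mb inside it was 4.202 to 10.0% in the 3 KO lists and 5.41 to 14.4% in the 4 WT lists, below the last 10 Mb outside in all 7. Chromosome 8 went against the 120 Mb boundary. There the share on the segment exceeded the rest in 2 of 3 KO lists and 2 of 4 WT lists, and it was already high for about 60 Mb before the segment. In p53 WT replicate 1 it was 21.4% between 70 and 60 Mb before the start, 79.0% between 50 and 40 Mb before it, 88.3% in the first 10 Mb inside and 45.7% beyond 20 Mb inside. The chromosome 8 segment is therefore named here by its position only, and comparisons were repeated without those 60 Mb.

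**Figure D1:**
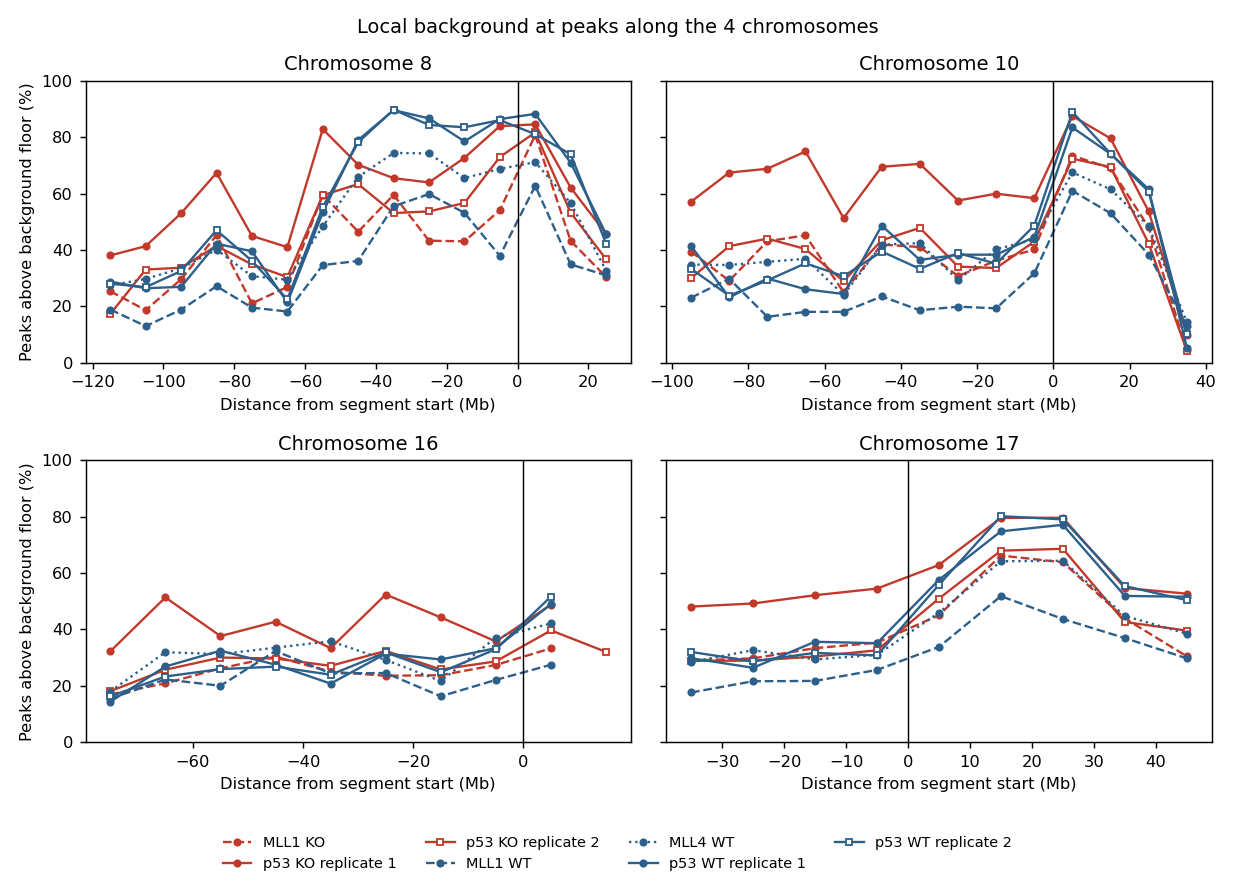
Share of peaks whose recovered input background exceeded the most frequent level of their list by over 1% (y axis, %). Steps are 10 Mb of distance from the segment start (x axis, Mb, line at 0) on the 4 chromosomes, for 3 KO lists (red) and 4 WT lists (blue). Steps with under 20 peaks are left out. In all 7 lists the share is higher in the first step inside than in the last step outside on chromosomes 10, 16 and 17. It is highest between 10 and 30 Mb inside on the segment of 17, lowest beyond 30 Mb inside on that of 10, and already high before the start on 8.

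Peaks were denser on the segments in 17 of the 18 lists, the exception being MLL4 in KO with its 2 peaks. In those 17 lists the ratio of peaks per Mb, segments over rest, ran from 1.78 to 3.64, and the same 17 lists were denser on the segment of each of the 4 chromosomes. The segments are also richer in genes, with 9.98 protein-coding genes per Mb against 6.92 on the rest. Per protein-coding gene the ratio ran from 1.23 to 2.52. With 1 Mb bins of the rest weighted to the segments' mix of broad gene-number classes, it ran from 1.27 to 2.47. Gene number can still differ within such a class. More gene ends also carried a peak: in the 17 lists the share of the 1121 segment genes with a peak within 1 kb of an end exceeded that of the 2350 other genes, for example 82.9 and 81.1% against 69.6 and 68.4% for H3K27ac in KO.

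The density was uneven along the segments. On chromosome 8, 58.2% of the segment's peaks lay between 20 and 25 Mb beyond its start, a stretch with 103 protein-coding genes. On chromosome 16, 75.2% lay between 5 and 10 Mb beyond the start, with 64 genes. On chromosome 17 the peaks were spread more widely, with 20.5% between 35 and 40 Mb beyond the start. The 10 Mb on each side of the starts were also compared alone. The median ratio over the 17 lists was 3.86 on chromosome 8, 1.55 on 10, 4.49 on 16 and 2.02 on 17. On chromosome 10 only 16 of 17 lists were denser inside. Protein-coding genes inside and outside numbered 35 and 18 on 8, and 79 and 84 on 10. They numbered 99 and 73 on 16, and 264 and 144 on 17. The part of gene number in these ratios was not tested.

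For H3K27ac the excess of density over all peaks was greater in KO than in WT, but not among its strongest peaks. It had 70.6 and 70.4 peaks per Mb on the segments in the 2 KO libraries, and 111 and 156 in the 2 WT libraries. On the rest it had 20.7 and 19.3 peaks per Mb in KO and 49.1 and 71.8 in WT. The ratio of segments over rest was 3.41 and 3.64 in KO, against 2.27 and 2.17 in WT, so both KO libraries lay above both WT libraries. The log2 ratio averaged 1.82 ± 0.07 in KO and 1.15 ± 0.05 in WT (SD, n = 2 each), a difference of 0.67 with an exact two-sided permutation p of 0.333, which is the smallest that 2 against 2 libraries allow. The difference was smaller at a −log10 q-value of at least 5, where the ratios were 3.31 and 3.28 in KO and 2.63 and 2.61 in WT. The order differed by fold enrichment. The ratios were 3.59 and 4.79 in KO and 2.18 and 1.86 in WT for peaks under 4-fold, and 3.87 and 3.82 in KO and 2.31 and 2.20 in WT at 4 to 10-fold. At 10-fold or more they were 1.94 and 2.07 in KO and 2.29 and 2.95 in WT, with both KO libraries below both WT libraries.

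**Figure D2:**
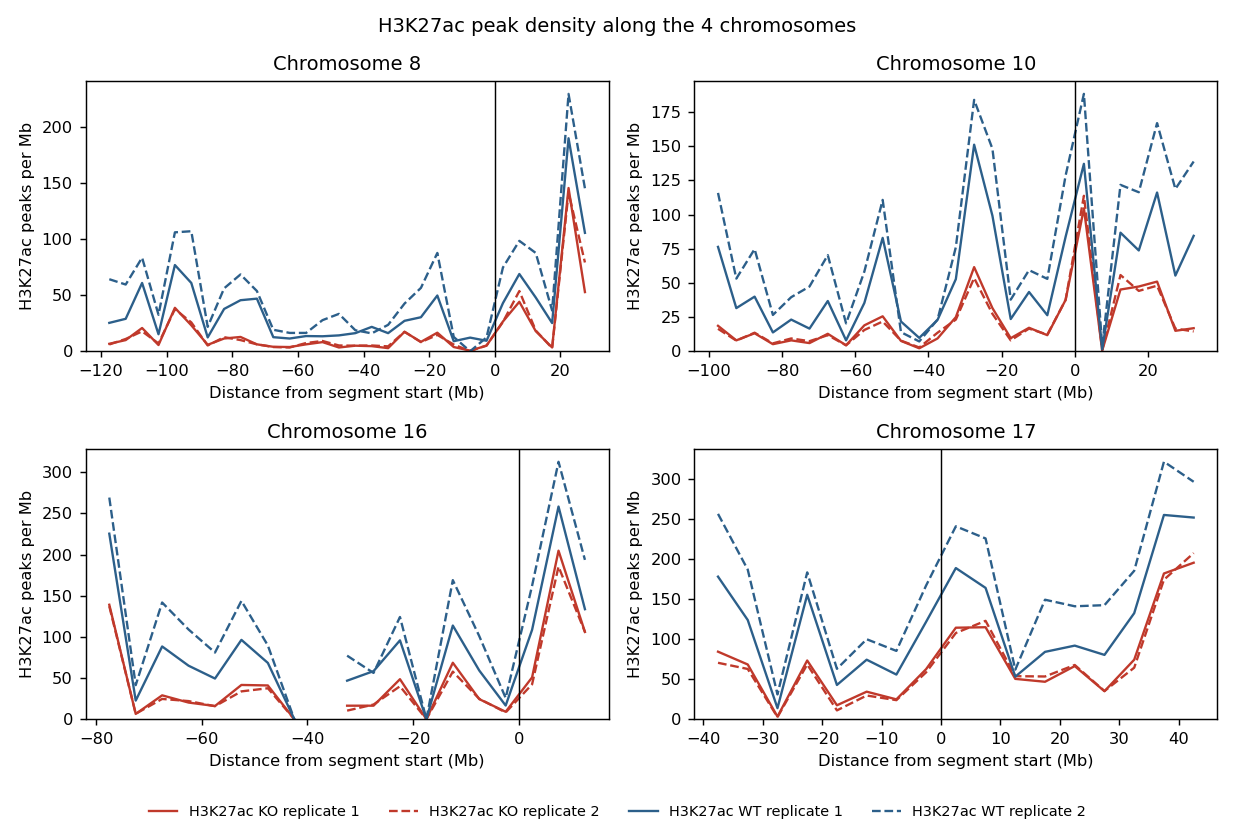
H3K27ac peaks per Mb (y axis, a separate scale for each chromosome) in 5 Mb steps of distance from the segment start (x axis, Mb, line at 0), for 2 KO libraries (red) and 2 WT libraries (blue); a gap marks a step with no peak in any list. WT lies above KO along nearly all of each chromosome, and both genotypes peak in the far part of the segments on 8, 16 and 17.

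For p53 over all peaks, both KO libraries again lay above both WT libraries. The ratio of peaks per Mb was 3.47 and 3.06 in the KO libraries and 2.57 and 2.14 in the WT libraries. Among peaks of 10-fold or more the libraries overlapped, at 3.74 and 3.24 in KO and 3.57 and 2.06 in WT. The log2 ratio averaged 1.71 ± 0.13 in KO and 1.23 ± 0.19 in WT (SD, n = 2 each; difference 0.48, exact two-sided permutation p = 0.333, again the smallest possible). For H3K4me3 the ratios overlapped, at 1.78 and 1.86 in KO and 1.91 and 1.85 in WT, with a log2 difference of -0.05 (exact permutation p = 0.667). Among targets with 1 library per genotype, H3K4me1 had 2.06 in KO and 1.78 in WT, and MLL1 had 2.70 in KO and 2.96 in WT. MLL4 had 2.60 in WT.

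**Figure D3:**
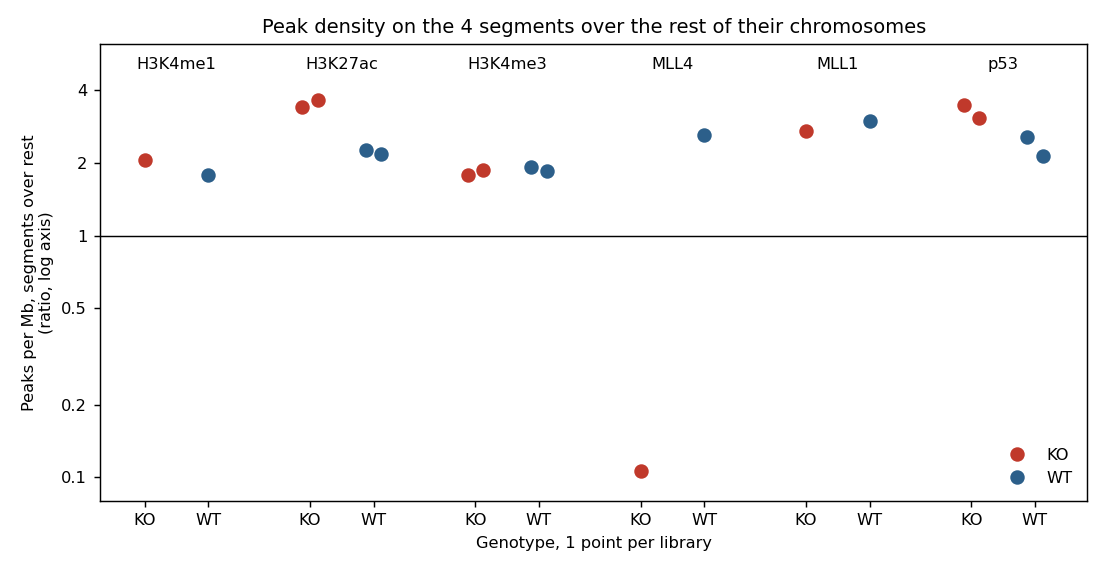
Peaks per Mb on the segments over peaks per Mb on the rest of the same chromosomes (y axis, ratio on a log axis, line at equal density), 1 point per library, KO (red) left of WT (blue) for each target. All points but MLL4 KO lie above 1, and the KO points of H3K27ac (3.41 and 3.64) lie above its WT points (2.27 and 2.17).

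Higher density did not come with higher fold enrichment. The median fold was higher on the segments in 5 lists, lower in 10 and equal in 3, and outside MLL4 KO its ratio ran from 0.621 to 1.09. H3K4me3 was lower on the segments in all 4 libraries: its median fold was 62.1 and 77.4 on the segments and 68.0 and 91.7 on the rest in KO, and 40.2 and 68.4 on the segments and 64.8 and 85.4 on the rest in WT. On chromosome 8 it was higher on the segment in 3 of the 4 libraries, with ratios of 1.36 and 1.27 in KO and 0.606 and 1.35 in WT, and on 10, 16 and 17 it was lower in all 4. MLL1 was lower as well, at 5.53 on the segments and 7.61 on the rest in KO and 4.30 and 4.84 in WT. For p53 and H3K27ac the medians differed little. The ratio for H3K27ac was 1.00 and 0.955 in KO and 1.00 and 1.09 in WT. Peaks off promoters, those over 1 kb from a gene end, made up more of the segments' lists, by amounts that varied widely. For p53 in KO replicate 1 they were 69.1% of peaks on the segments and 48.2% on the rest. For H3K27ac they were 83.7 and 82.6% on the segments against 72.8 and 70.4% on the rest in KO, and 87.9 and 90.002% against 84.5 and 87.5% in WT. There was almost no gap for MLL4 in WT (81.2 and 81.03%) and H3K4me1 in WT (85.9 and 85.2%).

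Loss and gain were read from regions, made by merging all peaks of a target. A region was lost when all WT libraries held it and no KO library did, gained when all KO libraries held it and no WT library did, and kept when called in all. Regions on which the replicates of a genotype disagreed fell in none of these classes. For H3K27ac they were 9954 of 17965 regions on the segments and 15285 of 26062 on the rest. For p53 they were 5855 of 8132 and 6053 of 8458, and for H3K4me3 603 of 1815 and 949 of 2939. Shares below are of regions called in all libraries of a genotype. Intervals below are 95% Wilson intervals over regions; they cover counting error only, and neighbouring regions are not independent.

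H3K27ac was lost less often on the segments. Of 9884 WT regions there, 4530 (45.8%, interval 44.9 to 46.8%) were lost, against 7515 of 12881 (58.3%, 57.5 to 59.2%) on the rest and 55.2% over all H3K27ac regions of the series. The segment lay below the rest on each chromosome: 51.5 and 62.8% on 8, 50.3 and 59.95% on 10, 44.6 and 55.9% on 16, and 42.5 and 56.1% on 17. The order held within each class of WT fold, taken as the lower of the 2 WT libraries. At 4 to 10-fold, 40.4% of segment regions and 56.7% of the others were lost, under 4-fold 75.02 and 84.7%, and at 10-fold or more only 5 of 1390 and 32 of 1850. It held off promoters (50.3 and 65.5%) and at promoters (18.8 and 27.2%). The difference, segments minus rest, was -12.5 percentage points. It was -4.33 points at a −log10 q-value of at least 5, -5.19 points with lists cut to equal length and -6.38 points when at least 50% of a region had to be covered.

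**Figure D4:**
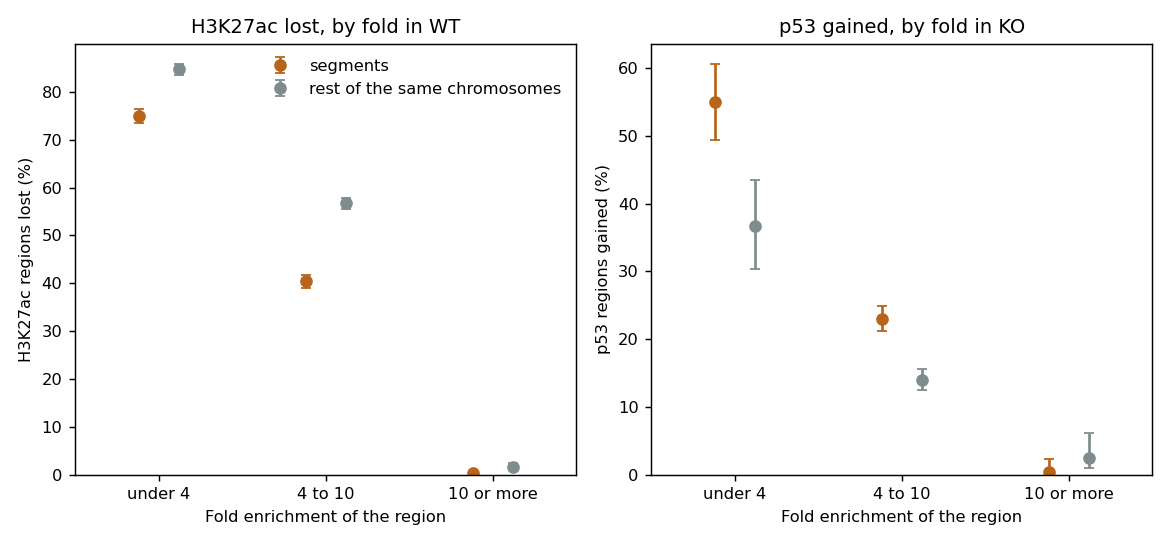
Share of WT H3K27ac regions lost (left, %) and of KO p53 regions gained (right, %) by the region's fold enrichment (x axis, the lower of the 2 libraries of WT on the left and of KO on the right), on the segments and on the rest of the same chromosomes; bars are 95% Wilson intervals. Segments lie below the rest for H3K27ac loss (40.4 and 56.7% at 4 to 10-fold) and above it for p53 gain under 10-fold (22.98 and 14.05% at 4 to 10-fold).

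The H3K27ac regions kept in KO differed in the marks they carried. In KO, 32.8% of the 3386 kept segment regions overlapped H3K4me3 and 59.0% overlapped H3K4me1, against 55.9 and 71.4% of the 3195 kept regions on the rest. In WT, 44.9% of the kept segment regions and 39.4% of the kept others overlapped an MLL4 peak, while among lost regions it was 11.7% on the segments and 9.09% on the rest. MLL4 peaks in WT sat on H3K27ac more often on the segments, in 73.5% of 5836 regions against 44.4% of 6783, and on H3K4me1 in 62.7 against 35.3%. These marks also covered more of the segments: H3K27ac peaks of the WT libraries covered 15.5 and 19.5% of the segments against 5.34 and 6.87% of the rest, and H3K4me1 peaks 18.95 against 7.69%. The part of this cover in the overlap was not tested. Where H3K27ac was kept, its fold was lower in KO. The median log2 ratio of KO over WT fold, over the 4 pairings of libraries, was between -0.99 and -0.70 on the segments and between -0.90 and -0.82 on the rest, ranges that overlap.

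Genes with the most lost H3K27ac regions are listed by segment, each region counted at the coding gene whose end lay closest, within 100 kb. On 8q, TSNARE1 had lost 29 of 60 WT regions, ST3GAL1, a sialyltransferase, 24 of 41, and TRAPPC9, a vesicle trafficking factor, 22 of 34. On 10q, CHST15, a sulfotransferase of chondroitin sulfate, had lost 28 of 60, CFAP46, a cilium protein, 26 of 29, and PTPRE, a receptor-type phosphatase, 26 of 42. On 16q, CMIP had lost 45 of 68, LOC128462377 28 of 33, and PLCG2, a phospholipase C, 27 of 40. The 17q genes were SLC39A11, a zinc transporter, with 37 of 65, MSI2, an RNA-binding protein, with 35 of 43, and SDK2, a cell adhesion protein, with 34 of 73. Losses at these genes were partial in all 12 cases. The ranking is by count, so a gene with many regions can rank high at a share near the 43.8% over all segment genes.

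Of the 8 named lost H3K27ac regions, the 2 of highest WT fold on each segment, 6 lay within protein-coding genes. One within VTI1A on 10q (chr10:112546989-112547507) had 12.5 and 20.8-fold enrichment in WT, one within SLC39A11 on 17q (chr17:72983728-72985752) had 10.5 and 19.0-fold, and one within CYRIB on 8q (chr8:129997664-130000142) had 9.71 and 19.6-fold, with no H3K27ac peak in either KO library. H3K4me1 was called in both genotypes at all 3 and at the region within ZC3H3 on 8q. It was called in neither genotype at the regions near SMNDC1 on 10q and within ACSF3 on 16q. At those near MVD on 16q and within SDK2 on 17q it was called in WT only. Gained H3K27ac regions were few, 95 of 3625 KO regions (2.62%) on the segments and 67 of 3409 (1.97%) on the rest, with 3.34% over the series. By gene they were at most 3, at ZDHHC6 on 10q, a palmitoyltransferase, of 15 KO regions. The 2 H3K27ac regions of CFAP58 were both gained, and 2 of 7 were gained at POU5F1B and 2 of 12 at ZHX2 on 8q. The direction of this small difference turned when KO replicate 2 or WT replicate 1 was left out (-0.62 and -0.29 percentage points).

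Over all segment genes, 43.8% of 8638 assigned WT H3K27ac regions were lost. Among gene lists, the HOXB cluster, transcription factors that pattern the body axis, had lost 9 of 42 (21.4%), 6 of them at HOXB9, and keratins of 17q 13 of 43 (30.2%), 4 of them at KRT17. Developmental transcription factors and signals had lost 77 of 208 (37.0%), with 24 of 36 at IRF8, 13 of 43 at PAX2 and 2 of 16 at TBX4. Near the overall share were adhesion and cytoskeleton genes, with 43 of 100, 17 of 46 at SEPTIN9, and genes of other cell types, with 32 of 71 (45.1%). Cell cycle and replication genes had lost 35 of 75 (46.7%), 7 of 13 at MKI67, and Wnt and colon genes 90 of 187 (48.1%). In the Wnt and colon list AXIN2, a feedback inhibitor of Wnt signalling, had lost 22 of 33, TCF7L2, the transcription factor of the pathway in colon, 21 of 41, and MYC 7 of 18. Lipid and amino acid metabolism genes had lost 24 of 43 (55.8%), 8 of 15 at ACLY, and the 3 p53 targets on the segments 20 of 29 (69.0%), 19 of 26 at NDRG1 alone.

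H3K4me1 was lost at 6710 of 8792 WT regions on the segments (76.3%, interval 75.4 to 77.2%) and at 11630 of 14918 on the rest (78.0%, 77.3 to 78.6%), with 77.7% over the series. This difference of -1.64 percentage points kept its sign and was larger at a −log10 q-value of at least 5 and with lists of equal length. It was 1.23 points, the other sign, when at least 50% of a region had to be covered, and no direction is drawn from it. Off promoters 84.0% of segment regions were lost and at promoters 30.6%, against 86.1 and 32.7% on the rest. TSNARE1 had lost 44 of 50 WT regions, GRK5, a receptor kinase, 37 of 43, CMIP 37 of 43, and SDK2 and SLC39A11 39 of 44 each. ASAP1 (31 of 37) and NSMCE2 (25 of 31) on 8q, SH3PXD2A (35 of 42) and CHST15 (30 of 36) on 10q, PLCG2 (26 of 30) and IRF8 (24 of 27) on 16q and MGAT5B (32 of 36) on 17q complete the 3 genes with the most on each segment, 12 in all. Gained regions were 493 of 2575 in KO (19.1%) on the segments and 903 of 4191 (21.5%) on the rest, with 23.6% over the series. The difference of -2.40 points was -6.46 at a −log10 q-value of at least 5, -8.48 with lists of equal length and 0.48, the other sign, with at least 50% of a region covered, so no direction is drawn from it either. The most at a gene were 5, of 8 KO regions at EFR3A, 7 at DOCK1 and 10 at KANSL1. Both values have 1 library per genotype behind them, with no replicate check.

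**Figure D5:**
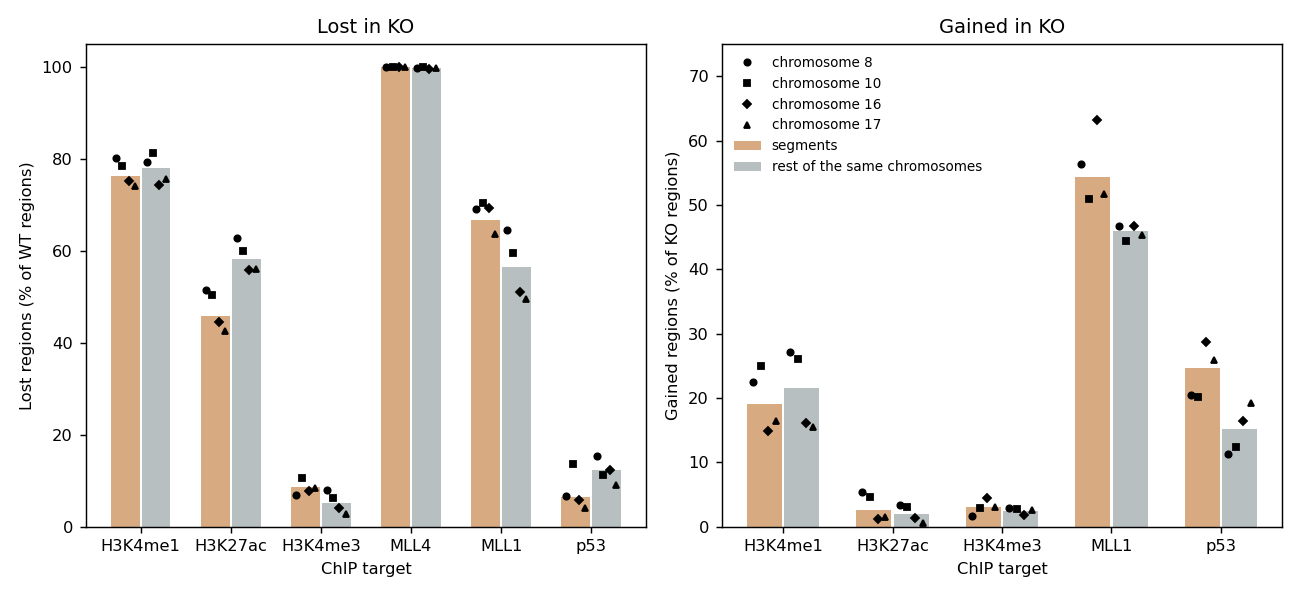
Share of WT regions lost in KO (left, %) and of KO regions gained (right, %) for each target, on the segments (orange bars) and on the rest of the same chromosomes (grey bars), with 1 black symbol per chromosome; MLL4 is left out on the right because KO had 2 MLL4 regions on the segments. Segment bars are lower for H3K27ac loss (45.8 and 58.3%) and p53 loss (6.51 and 12.3%) and higher for p53 gain (24.7 and 15.2%) and MLL1 loss (66.8 and 56.5%).

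Few H3K4me3 regions were lost or gained. On the segments 104 of 1217 WT regions were lost (8.55%, interval 7.10 to 10.2%), against 104 of 2011 on the rest (5.17%, 4.29 to 6.23%) and 5.35% over the series. The segment had the higher share on 10, 16 and 17 but not on 8 (6.98 and 7.91%). Most losses lay off promoters, 97 of 550 segment regions there and 7 of 667 at promoters. The difference of 3.37 percentage points was 1.55 points once the rest was weighted to the segments' mix of promoter position and WT fold. Gained regions were 38 of 1253 (3.03%) on the segments and 51 of 2059 (2.48%) on the rest, with 2.52% over the series, and without KO replicate 2 the order turned (6.29 and 8.48%).

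At the MGMT promoter on 10q, which serves a DNA repair enzyme that removes alkyl groups from guanine, an H3K4me3 region (chr10:129466456-129468209) was called in neither KO library. Its fold in WT was 8.61 in replicate 1 and 68.5 in replicate 2, so the WT libraries themselves differed widely. MLL4 and H3K4me1 peaks overlapped it in WT and not in KO. A p53 region called in both WT libraries overlapped it, and none called in both KO libraries did. No H3K27ac region called in both libraries of a genotype overlapped it. Other lost H3K4me3 regions lay inside genes, among them CDC42EP4 on 17q, a regulator of the actin cytoskeleton, with 10.7 and 29.8-fold in WT, MEAK7 on 16q with 12.9 and 10.4-fold, and SLC7A5 on 16q, an amino acid transporter, with 9.94 and 8.93-fold. H3K4me1 and H3K27ac were called in both genotypes at these 3. The gained H3K4me3 region with the highest fold on 17q lay in LGALS3BP, a secreted glycoprotein (12.7 and 17.1-fold in KO), and another in TSPOAP1 (9.16 and 10.2-fold).

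MLL4 occupancy was lost at 5834 of 5836 segment regions and at 6767 of 6783 on the rest, with 99.8% over the series. The 2 strongest WT regions of each segment lay in TUBB3, a neuronal tubulin (85.9-fold), and CBFA2T3, a corepressor (82.1-fold), on 16q, and at the start of ITPRIP (67.9-fold) and in CFAP46 (57.9-fold) on 10q. On 17q they lay in AATK (66.5-fold) and RPTOR, a subunit of the growth kinase complex of mTOR (64.2-fold), and on 8q near TOP1MT, the mitochondrial topoisomerase (61.7-fold), and in GPR20 (37.5-fold). In KO, MLL1 was called at all 8 regions and H3K27ac at all but those of CFAP46 and RPTOR. p53 was called in KO at all but those of CBFA2T3 and CFAP46, and H3K4me1 only at those of ITPRIP, AATK and GPR20. In WT, MLL1, H3K27ac and p53 were called at all 8. H3K4me1 was called in WT at all but those of CFAP46 and CBFA2T3, where it was absent in both genotypes. KO gained no MLL4 region on the segments, against 41 of 57 KO regions on the rest and 54.8% over the series.

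MLL1 lists differed between the genotypes in both directions, with 1 library per genotype and no replicate check. Of 3994 WT regions on the segments 2666 were lost (66.8%, interval 65.3 to 68.2%), against 2295 of 4063 on the rest (56.5%, 54.96 to 58.0%) and 55.4% over the series. Of 2905 KO regions 1577 were gained (54.3%), against 1499 of 3267 (45.9%) and 48.3% over the series. The mix of regions differed too: 77.4% of WT segment regions lay off promoters against 65.0% on the rest, and off promoters 79.9% of segment regions and 79.2% of the others were lost. With the rest weighted to the segments' mix of position and fold, the difference in loss was 1.36 percentage points and that in gain was -3.08 points, the opposite sign. At regions kept in both genotypes the median log2 ratio of KO over WT fold was 1.07 on the segments and 1.43 on the rest. The gained MLL1 regions of highest fold included 1 within OGFOD3 (21.4-fold in KO) and 1 within RBFOX3 (17.8-fold) on 17q, and 1 at the start of C10orf143 on 10q (15.5-fold). Of the lost ones, a region in LINC02964 on 8q had 10.8-fold and one in RPTOR on 17q 9.66-fold in WT.

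p53 regions were lost less often and gained more often on the segments. Lost were 138 of 2121 WT regions (6.51%, interval 5.53 to 7.64%), against 363 of 2963 on the rest (12.3%, 11.1 to 13.5%) and 12.7% over the series. The segment had the lower share on 8 (6.65 and 15.4%), 16 (5.79 and 12.4%) and 17 (4.07 and 9.11%), but not on 10 (13.7 and 11.3%). Without KO replicate 2, which had more p53 peaks on the segments than replicate 1 (7145 and 3235), the shares were 28.0% on the segments and 41.5% on the rest.

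Gained p53 regions were 613 of 2478 KO regions (24.7%, interval 23.1 to 26.5%) on the segments, against 354 of 2328 on the rest (15.2%, 13.8 to 16.7%) and 17.6% over the series. The segment was higher on each chromosome, with 20.4 and 11.3% on 8, 20.2 and 12.3% on 10, 28.6 and 16.5% on 16, and 25.9 and 19.2% on 17. The excess lay off promoters, where 31.0% of 1570 segment regions and 17.5% of 968 others were gained, while at promoters it was 13.9% of 908 and 13.6% of 1360. It also lay among regions of low fold: at 10-fold or more 1 of 233 segment regions and 4 of 161 others were gained. The difference of 9.53 percentage points was 1.66 points at a −log10 q-value of at least 5 and 1.82 points with lists of equal length, and without WT replicate 1 or WT replicate 2 it was 14.7 and 5.68 points. Of the gained segment regions 83.5% overlapped H3K27ac in KO and 32.1% H3K4me3, against 82.5 and 66.1% on the rest. The share of peaks with input background above the most frequent level was higher on the segments in all 4 p53 lists, as given above. The part of this background in these differences was not tested.

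Of the gained p53 regions of highest fold, 4 lay at these genes. On 10q a region over a start of GSTO2, a glutathione transferase, had 10.2 and 12.8-fold in KO, and one at EDRF1 had 9.70 and 8.89-fold. On 16q the region at TAF1C, a subunit of the RNA polymerase I initiation factor, had 8.47 and 10.2-fold, and on 17q that over a start of CDK5RAP3 had 9.83 and 10.7-fold. At these 4 genes H3K4me3, H3K27ac and MLL1 were called in both genotypes. Among the other gained p53 regions of highest fold, this also held near ZNF778 on 16q and EIF1 on 17q, but not on 8q. Near COL14A1 on 8q H3K27ac was called in WT only. Near ADGRB1 on 8q H3K4me3 was called in neither genotype and MLL1 in KO only. Several of the lost p53 regions of highest WT fold lay outside protein-coding genes, and 2 of them are given here. The one on 17q, 11420 bp from LOC124904102, had 13.5 and 40.6-fold in WT. The one on 16q, 22700 bp from ACSF3, had 15.2 and 22.02-fold.

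The 8 strongest p53 regions of WT, 2 on each segment, were all called in KO, and at 7 of them both KO folds were below both WT folds. They were picked for their high WT fold, which favours a lower fold in KO, so their values are a description and support no difference. At EPPK1 on 8q, a plakin family cytoskeletal linker, the fold was 8.70 and 11.9 in KO and 27.9 and 85.3 in WT. At INPP5F on 10q, an inositol polyphosphate phosphatase, it was 5.25 and 14.8 in KO and 22.1 and 31.7 in WT. At METRNL on 17q, a secreted protein, it was 13.8 and 15.2 in KO and 24.9 and 40.2 in WT. The KO libraries were below both WT libraries at these 3 genes. At VPS9D1 and ZNF276 on 16q the values overlapped, with 27.01 and 17.4 in KO and 23.4 and 46.5 in WT. Over all 1526 kept p53 regions of the segments the median log2 ratio of KO over WT fold ran from -1.37 to -0.28 across the 4 pairings of libraries, and over the 1688 on the rest from -1.38 to -0.13, so the lower fold in KO was seen on both.

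Over all segment genes 120 of 2037 assigned WT p53 regions were lost (5.89%), and the gene lists hold too few regions to be set apart from that share. None of 7 was lost at the 3 p53 targets, none of 21 at cell cycle and replication genes, none of 11 at metabolism genes and none of 3 at keratins. Adhesion and cytoskeleton genes had lost 1 of 37, Wnt and colon genes 2 of 26, HOXB genes 3 of 34 and genes of other cell types 2 of 11. Developmental factors had lost 7 of 86, 4 of them at EBF3, where none of 7 WT regions was kept. Gains were 10 of 46 KO regions at adhesion and cytoskeleton genes, 8 of them at SEPTIN9, 6 of 29 at Wnt and colon genes, 4 of them at WNT3, and 1 of 27 at HOXB genes, against 581 of 2391 over all segment genes.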

How the data were processed

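ChIP-seq peak lists from KO and WT HCT116 cells were used as deposited. Peaks were called with MACS2 2.1.1 on hg38, per the submitters' processing notes; peak names in the deposited lists show each library called alone against its genotype's input, with 16 narrow lists and 2 broad ones (H3K4me1). No aligner and no read depth is given in the sources used here, so no depth-based interval was made. The authors' lists give per peak a fold enrichment (a ratio over local background), the −log10 of p and of q (as a −log10 p-value and q-value), and a score. Fold is the authors' own value per peak.

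Peaks on chromosomes 1 to 22 and X were split by start position and merged per target at an overlap of at least 1 bp. Promoters were within 1 kb of either end of 19970 protein-coding genes (RefSeq, GRCh38.p14), since that table has no strand. Local background was solved from fold and −log10 p-value to within 0.01 and used where at least 90% of 2000 peaks were solved, as tested on simulated data. Python 3.11.15, pandas 2.3.3, numpy 2.4.6, scipy 1.17.1 and matplotlib 3.10.9 were used. Libraries were compared with exact permutation tests, shares with 95% Wilson intervals. Same-numbered replicates of KO and WT were not paired: their fold differences correlated at -0.07 (H3K27ac), -0.05 (H3K4me3) and 0.03 (p53). No replicate pair shared an identical peak.

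Named were, on each segment, the 3 genes with the most lost and 2 with the most gained regions (H3K4me1, H3K27ac), the 2 lost and 2 gained regions of highest fold (H3K4me3, MLL1, p53), the 2 strongest WT regions (MLL4, p53) and 2 lost H3K27ac regions, and members of fixed lists; the text gives a selection. Members, lists and rules were chosen with earlier results of these data known. Alternatives were a stricter q-value, lists of equal length, at least 50% of a region covered, other comparison areas, a weighted mix, shifted starts and left-out replicates.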

Additional observations from a re-analysis of the deposited data

Results flagged for a closer look

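For H3K27ac on single chromosomes, the log2 ratio of median fold, segment over rest, lay on opposite sides of equality in the 2 genotypes. On chromosome 8 the median fold ratio was 0.964 and 0.929 in the KO libraries and 1.06 and 1.13 in the WT libraries, a difference of -0.21 between the mean log2 ratios. On chromosome 16 it was 0.991 and 0.893 in KO and 1.06 and 1.20 in WT, a difference of -0.26. Both KO libraries were below equality and both WT libraries above it on each. The difference was not tested on single chromosomes.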

How the results depend on the processing

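Segment density was higher in 17 of 18 lists under every alternative run. These included leaving out the 60 Mb before the chromosome 8 segment and grouping bins by gene number, both chosen after seeing the data. The differences below are segments minus rest in percentage points, and the cause of a change was not tested unless the setting's construction gives it. At a −log10 q-value of at least 5 they were -6.01 for H3K4me1 loss, -6.46 for H3K4me1 gain, -4.33 for H3K27ac loss and 0.56 for MLL4 loss. MLL4 gain was -86.0 there, against -71.9 in the main setting, where the segments held only 2 KO regions. The differences at that threshold were also 13.3 for MLL1 gain, -13.8 for p53 loss and 1.66 for p53 gain. With lists of equal length they were -4.59 and -8.48 for H3K4me1 loss and gain, -5.19 for H3K27ac loss, 14.1 for MLL1 loss, -13.0 for p53 loss and 1.82 for p53 gain. With at least 50% of a region covered they were 1.23 and 0.48 for H3K4me1 loss and gain (both turned), -6.38 and 3.06 for H3K27ac loss and gain, and -10.1 for p53 loss. Against all other positions of the genome they were -4.74 for H3K4me1 gain, -10.3 for H3K27ac loss, -0.81 for H3K27ac gain (turned) and 12.9 for MLL1 loss. With the rest weighted to the segments' mix of position and fold they were -0.063 for H3K27ac gain (turned), 1.55 and -0.16 for H3K4me3 loss and gain (the gain turned), and 1.36 and -3.08 for MLL1 loss and gain (the gain turned). Without the 60 Mb before the chromosome 8 segment, MLL1 loss was 12.4, and 3 lists in place of 5 had a higher median fold, as with starts moved by 5 Mb. Leaving out each replicate in turn gave -13.7 to -10.7 for H3K27ac loss, -0.62 to 1.33 for H3K27ac gain (-0.29 without WT replicate 1), 2.65 to 3.96 and -2.19 to 3.62 for H3K4me3 loss and gain, and -13.5 to -6.01 and 5.68 to 14.7 for p53 loss and gain. For log2 ratios of KO minus WT it gave 0.62 to 0.72 (H3K27ac density), -0.16 to -0.04 (H3K27ac fold), -0.08 to -0.02 (H3K4me3 density), 0.13 to 0.50 (H3K4me3 fold), 0.35 to 0.61 (p53 density) and -0.027 to 0.069 (p53 fold, main 0.021); the last was -0.10 at a −log10 q-value of at least 5. With a replicate block the KO minus WT differences were the same and the exact p was 0.5 for H3K27ac and p53 density and 1 for H3K4me3 density, so no call changed. Of the values under all alternatives, 125 were counted as the same, 30 as moved and 11 as turned. No single spread lay behind this count. The KO minus WT log2 differences counted as the same wherever their sign held, whatever their size. None for H3K4me3 fold counted as moved, although it ran from 0.13 to 0.50 across left-out replicates. The 125 also include the values with a replicate block, which were the same by construction. The count is therefore no measure of how stable the results are. Read depth, which limits which regions could be called, is not given in the sources used here.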
